A study of Mus musculus with 2 samples.

Results

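The 7 genes described here encode proteins of acid secretion by the parietal cell of the gastric gland. They are *Atp4a*, *Atp4b*, *Kcnq1*, *Kcne2*, *Slc26a7*, *Car2* and *Esrrg*, taken as a named list from the 19550 genes counted. Their levels, the shares of cells in which they were detected and their joint detection with *Atp4a* were read in the 1494 columnar epithelial cells of the stomach and the gastroesophageal squamocolumnar junction (GE-SCJ), of 7808 cells in all, beside 354 immune cells as the background. All cells came from wild type C57BL/6 mice at embryonic day 15 (E15), E19, the pup stage (day 2) and the adult stage (8 weeks), with no treatment in any group. Tissue of each region and stage was dissociated with collagenase and carried a single 10x Genomics CellPlex tag, all tags were sequenced in a pooled 3′ library, and 11 tags are represented. Adult stomach cells are not analysed here. Columnar cells numbered 140 on E15, 366 on E19 and 351 in the pup for the stomach, and 53, 274, 291 and 19 on E15, E19, the pup and the adult stage for the GE-SCJ. Animals were pooled under each tag (6 mice on E15, 2 on E19, 2 pups and 3 adults in the labels, or 3 mice in the methods), so that each region and stage is a single sample without replicates. No difference between stages or regions could therefore be tested, and intervals in parentheses are exact 95% limits that cover counting error of unique molecular identifiers (UMIs) or cells only.

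Parietal cells secrete hydrochloric acid through the H+/K+-ATPase, a pump made of the catalytic α subunit encoded by *Atp4a* and the glycosylated β subunit encoded by *Atp4b*. The pump takes up luminal potassium, which returns to the lumen through an apical channel formed by the pore subunit *Kcnq1* and the accessory subunit *Kcne2*. Carbonic anhydrase II, encoded by *Car2*, supplies protons from carbon dioxide and water, bicarbonate leaves across the basolateral membrane through chloride/bicarbonate exchangers such as *Slc26a7*, and the orphan nuclear receptor *Esrrg* is known as a regulator of pump and mitochondrial genes. Parietal cells are rich in mitochondria and arise late in gastric development.

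On GRCm38, with the GENCODE M21 annotation, all 7 are protein-coding genes. *Atp4a* lies at chr7:30712209-30725534 on the plus strand and *Atp4b* at chr8:13386205-13396825 on the minus strand. The channel genes lie at chr7:143106362-143427042 (*Kcnq1*, plus) and chr16:92292389-92298129 (*Kcne2*, plus). *Car2* spans chr3:14886273-14900770 (plus), *Slc26a7* chr4:14502430-14621805 (minus) and *Esrrg* chr1:187608791-188214885 (plus). RefSeq promoter windows on GRCm38.p6 matched 3 of the 7 genes. Those of *Atp4a* (chr7:30711959-30712208, plus strand) and *Kcne2* (chr16:92292139-92292388, plus strand) are printed 5′ to 3′ because transcripts of these genes were found in the same cells, as described further on. Capitals would mark a motif match, and neither printed sequence has one. Another RefSeq window of *Kcne2* (chr16:92295366-92295615, plus strand) is not printed.
*Atp4a* promoter: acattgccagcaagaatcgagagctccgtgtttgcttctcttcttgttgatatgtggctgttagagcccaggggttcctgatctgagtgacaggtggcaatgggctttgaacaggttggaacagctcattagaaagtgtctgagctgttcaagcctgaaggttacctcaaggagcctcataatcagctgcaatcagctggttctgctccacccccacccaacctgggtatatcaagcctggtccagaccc
*Kcne2* promoter: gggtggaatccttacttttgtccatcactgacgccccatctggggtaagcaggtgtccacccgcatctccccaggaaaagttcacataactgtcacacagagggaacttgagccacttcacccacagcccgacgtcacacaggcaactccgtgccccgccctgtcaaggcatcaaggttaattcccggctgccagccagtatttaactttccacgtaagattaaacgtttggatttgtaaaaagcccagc
The motifs searched on both strands were the extended ERR element TCAAGGTCA, present in 0.387% of 32851 promoter windows of 250 bases, and the core nuclear receptor element AGGTCA (14.0%), which the first contains. The GATA site, as AGATAA or TGATAA and with the last A replaced by G, was present in 26.5% and TATAAA in 12.4%. The absence of a match says only that these letters are not in these windows. A window of *Esrrg* that is not printed (chr1:187608756-187609005, plus strand) holds TTTATA, the reverse complement of TATAAA. It lies at -19 from the RefSeq start site that follows this window, which is not the GENCODE start given above (chr1:187608791).

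The columnar label was checked against its markers. The 5 columnar markers summed to 4280 CPM (counts of UMIs scaled to 1000000 UMIs of the group) in the 1494 columnar cells and to 433 CPM in immune cells, and each was higher in columnar cells. The 6 immune markers summed to 11.1 CPM and 5519 CPM, respectively. Immune cells also held 9184 CPM of the 6 erythroid markers and 983 CPM of the 5 stroma markers in sum. The medians over immune cells were 361 CPM for the erythroid, 278 CPM for the stroma and 5916 CPM for the immune markers. Columnar groups held between 495773 and 11420234 UMIs, with a median of 22286 to 29810 UMIs per cell, whereas immune cells had medians of 11504 on E15, 8891.5 on E19, 5935 in pups and 4473.5 in adults. Immune cells were taken over all regions of a stage, and at the adult stage there were only 6.

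Both pump subunits were under 2-fold above immune cells on E15 and highest in the pup. *Atp4a* measured 69.4 CPM (61.3 to 78.2) in stomach columnar cells on E15, 232 CPM (222 to 242) on E19 and 3340 CPM (3306 to 3374) in the pup. In the GE-SCJ it measured 68.7 CPM (55.3 to 84.4) on E15, 336 CPM (322 to 349) on E19, 1925 CPM (1895 to 1955) in pups and 1404 CPM (1302 to 1512) in adults. The E15 intervals of the regions overlapped, and the intervals of every other neighbour in the order of these 7 levels were apart. These intervals treat UMIs as independent and do not cover the spread between cells, although 659 of the 696 adult UMIs lay in 2 of 19 cells. The order of the regions on E19 changed when single cells were averaged, as given below. Immune cells held 86.5, 93.7, 120 and 225 CPM of *Atp4a* at the successive stages, so that per UMI the E15 columnar levels did not exceed this background. Stroma held more than immune cells in the pup, with 414 CPM (357 to 479) in the stomach and 213 CPM (179 to 253) in the esophagus. Stomach stroma held 117 CPM (109 to 126) on E19. Pup squamous cells held less than immune cells, with 105 CPM in the esophagus and 88.5 CPM in the GE-SCJ. The immune level is thus not the highest outside columnar cells. E15 columnar cells of the stomach were deeper than immune cells (medians of 24673 and 11504 UMIs), and UMIs per cell were not compared. *Atp4b* followed the same order, with 96.6, 191 and 3034 CPM in the stomach and 83.1, 274, 1513 and 764 CPM in the GE-SCJ, against 64.9, 88.9, 114 and 86.6 CPM in immune cells. On E15 the log2 ratio of stomach columnar to immune cells was 0.56 (0.19 to 0.97) for *Atp4b* and -0.33 (-0.67 to 0.05) for *Atp4a*. The ratio of pup to E19 in the stomach was 14.4-fold for *Atp4a* (log2 ratio 3.85, 3.79 to 3.91) and 15.9-fold for *Atp4b* (log2 ratio 3.99, 3.92 to 4.06). When the CPM of single cells were averaged in place of summed UMIs, these log2 ratios were 2.35 and 2.90. In the GE-SCJ the pup was 5.74-fold above E19 for *Atp4a* and 5.52-fold for *Atp4b* (log2 ratios 2.52 and 2.46). There the log2 ratio of *Atp4a* was 1.86 with averaged cells and 3.13 without the 1% of cells with most of its UMIs, and that of *Atp4b* was 1.81 after a stricter cell filter and 3.10 without such cells.

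**Figure D1:**
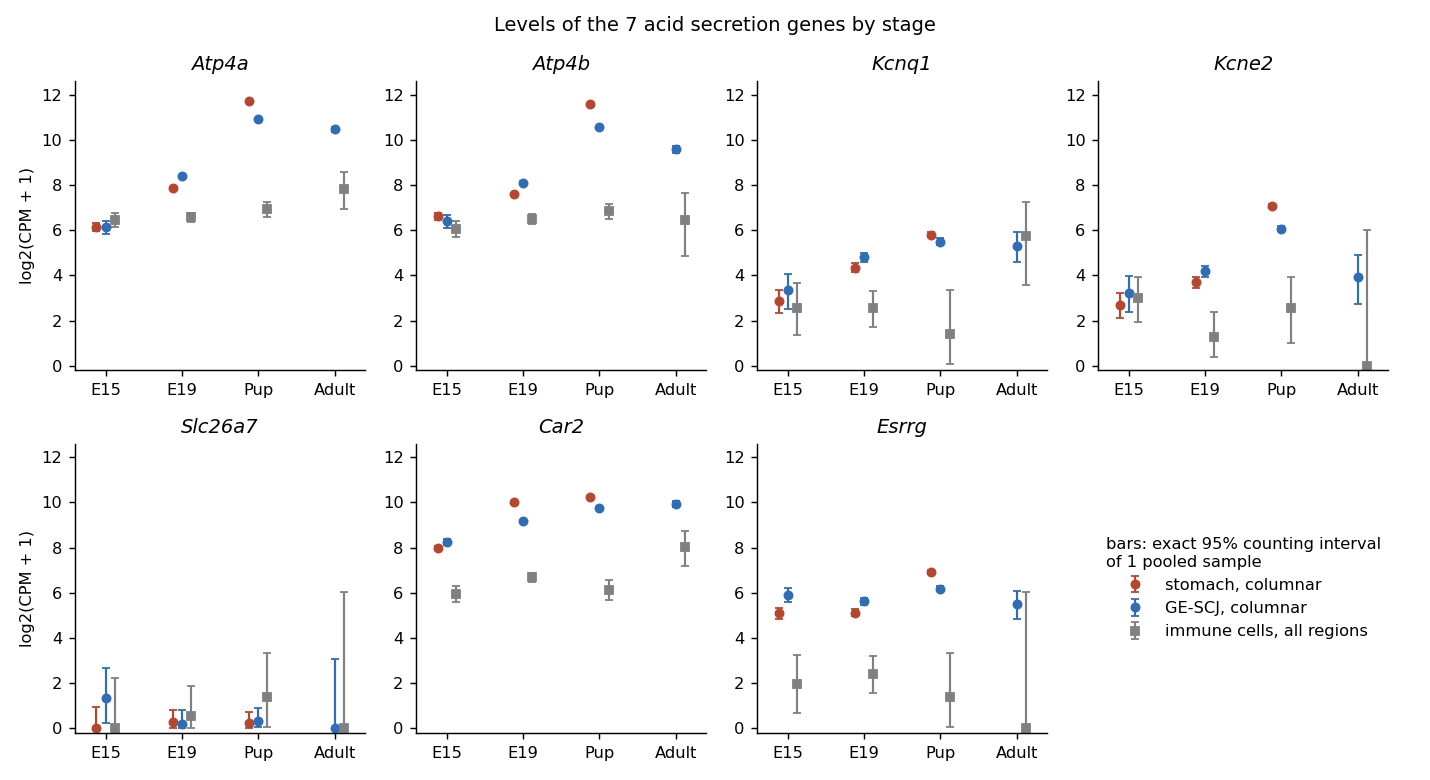
Levels of the 7 genes in columnar cells of the stomach (red) and the GE-SCJ (blue) and in immune cells of all regions (grey), as log2(CPM + 1) against stage, with bars for the exact 95% counting interval of a single pooled sample. *Atp4a* and *Atp4b* reach 3340 and 3034 CPM in the stomach pup from levels near the immune background on E15, while *Slc26a7* stays at or under 1.51 CPM in each columnar group.

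The channel subunits were detected at lower UMI counts and with a similar order of stages. *Kcnq1* measured 6.22 CPM (3.98 to 9.25) on E15, 19.2 CPM (16.5 to 22.2) on E19 and 54.8 CPM (50.6 to 59.3) in the pup stomach, and 9.06, 26.7, 44.1 and 38.3 CPM from E15 to adult in the GE-SCJ. Immune cells were at 4.91 CPM or below up to the pup, and the adult value of 51.9 CPM came from 3 UMIs. *Kcne2* measured 5.44 CPM (3.37 to 8.31), 11.9 CPM (9.85 to 14.3) and 133 CPM (126 to 140) in the stomach, and 8.31, 17.2, 66.0 and 14.1 CPM in the GE-SCJ. Its E15 levels overlapped the 6.88 CPM of immune cells of that stage (2.77 to 14.2). Between E19 and the pup the stomach log2 ratio was 3.47 for *Kcne2* (3.20 to 3.77) and 1.51 for *Kcnq1* (1.28 to 1.76).

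*Car2* was above immune cells already on E15, with 254 CPM (238 to 270) in the stomach and 305 CPM (276 to 336) in the GE-SCJ against 60.9 CPM (46.7 to 78.1). In the stomach its larger step lay between E15 and E19, to 1033 CPM (log2 ratio 2.03, 1.93 to 2.12), and the pup level of 1195 CPM was close to it (log2 ratio 0.21, 0.17 to 0.25). The GE-SCJ held 576 CPM on E19, 866 CPM in the pup and 974 CPM in the adult. *Slc26a7* was hardly detected in columnar cells. Stomach columnar cells held 0, 2 and 2 UMIs on E15, E19 and in the pup, and GE-SCJ columnar cells 2, 1, 2 and 0 from E15 to adult. The highest of these levels was 1.51 CPM (0.183 to 5.46). The 0 of the stomach on E15 has an exact upper limit of 0.955 CPM, or 0.777 CPM at 3 counts, so no stage difference was detectable at these counts.

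*Esrrg* was above the immune level from E15 to the pup. It measured 33.1 CPM (27.7 to 39.4) on E15, 33.7 CPM (30.1 to 37.6) on E19 and 122 CPM (116 to 128) in the stomach pup, against 2.95, 4.32 and 1.65 CPM in immune cells. In the GE-SCJ it measured 59.7, 48.2, 71.5 and 44.4 CPM from E15 to adult, where the intervals on E15 (47.2 to 74.4), E19 (43.2 to 53.5), pup (65.8 to 77.6) and adult (27.8 to 67.2) overlapped except between E19 and the pup. The log2 ratio of pup to E15 was 1.87 (1.62 to 2.15) in the stomach and 0.25 (-0.08 to 0.62) in the GE-SCJ.

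A ratio was counted when it reached 2-fold and both groups together held at least 20 UMIs, which *Slc26a7* did not reach in any comparison of columnar cells. In the stomach, 4 of 6 genes were higher on E19 than on E15 (4.42% of all genes), 5 were higher in the pup than on E19 (6.75%) and 6 in the pup than on E15 (9.75%). In the GE-SCJ the counts were 3 of 6 for E19 over E15 (3.04% of all genes), 3 for the pup over E19 (7.62%) and 5 for the pup over E15 (9.39%). Those under 2-fold in the stomach were *Atp4b* (log2 ratio 0.98) and *Esrrg* (0.02) for E19 over E15 and *Car2* for the pup over E19. When the CPM of single cells were averaged, *Kcnq1* and *Esrrg* were also under 2-fold for the pup over E19. In the GE-SCJ *Esrrg* was under 2-fold in all 3 comparisons, *Car2* (0.91) and *Kcne2* (0.93) for E19 over E15, and *Kcnq1* (0.72) and *Car2* (0.59) for the pup over E19. There *Kcne2* was left uncounted for E19 over E15 only through the UMI added to each sum, with 123 and 11 UMIs and 2.07-fold without it. From pup to adult in the GE-SCJ only *Kcne2* was lower by 2-fold, with 7 adult UMIs (log2 ratio -2.04, -3.55 to -1.17), where 4.05% of all genes were, and *Atp4b* was just under it at -0.98 (-1.14 to -0.84). Of the 696 adult *Atp4a* UMIs, 659 came from 2 of the 19 cells, and the other 17 cells held 81.3 CPM (57.3 to 112). Against immune cells of the stage, 2 genes of the 6 counted in the stomach on E15 were at least 2-fold higher (19.9% of all genes) and 2 of the 4 counted in the GE-SCJ (19.8%), namely *Car2* and *Esrrg* in both. On E19 all 6 were higher in the stomach (16.7% of all genes) and in the GE-SCJ (16.4%), as in the pup (17.3% and 18.3%), and in the adult GE-SCJ 4 of 5 (14.2%), without *Kcnq1*. Immune cells held only 10, 3 and 9 UMIs of *Kcnq1*, *Kcne2* and *Esrrg* on E19 and 1, 3 and 1 in the pup. *Esrrg* had 3 on E15. These genes therefore passed the UMI limit through the columnar cells, and the counts are in part set by this filter. The adult count includes *Esrrg* on 22 UMIs against 0 in the 6 immune cells, where 3 counts would be 51.9 CPM, above its columnar level.

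In summed UMIs, 5 of the genes were lower in the stomach than in the GE-SCJ on E19 and all 6 were higher in the pup. On E15 none of the 6 genes was 2-fold higher in the stomach than in the GE-SCJ (2.17% of all genes), and for *Atp4a* the log2 ratio of stomach to GE-SCJ was 0.00 (-0.33 to 0.37). On E19 the count was again 0 (2.27%), and all but *Car2* had log2 ratios between -0.53 and -0.48, with intervals below 0, while *Car2* was higher in the stomach (0.84, 0.79 to 0.90). This E19 order did not hold for all of them when the CPM of single cells were averaged, with log2 ratios of 0.54 for *Atp4a*, 0.38 for *Atp4b*, 0.21 for *Kcne2*, 0.04 for *Esrrg* and -0.21 for *Kcnq1*. Without cells above 40000 UMIs *Atp4a* was at 0.08 and *Atp4b* at 0.13. In the pup all 6 were higher in the stomach, 2 of them by 2-fold (1.36% of all genes), with log2 ratios of 1.01 for *Kcne2* (0.87 to 1.16), 1.00 for *Atp4b* (0.97 to 1.03), 0.79 for *Atp4a*, 0.77 for *Esrrg*, 0.46 for *Car2* and 0.31 for *Kcnq1*. These ratios compare single pooled samples, and a different share of cells with the transcripts cannot be told apart from a different level per cell in such sums.

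Cells with at least 1 UMI of *Atp4a* were common in every class. They made up 73.6%, 75.7% and 84.9% of stomach columnar cells on E15, E19 and in the pup, 81.1%, 76.6%, 80.1% and 89.5% of GE-SCJ columnar cells, and 63.4%, 64.4%, 48.8% and 66.7% of the shallower immune cells. After thinning each cell to 5000 UMIs, which left out 1 to 21 cells of each columnar group and 15, 54 and 28 immune cells on E15, E19 and in the pup, the shares were 25.2% (18.2 to 33.2), 33.3% (28.4 to 38.6) and 47.8% (42.4 to 53.2) in the stomach. They were 21.2% (11.1 to 34.7), 31.2% (25.7 to 37.1), 40.1% (34.4 to 46.1) and 44.4% (21.5 to 69.2) in the GE-SCJ, against 26.9% (16.8 to 39.1), 40.5% (31.8 to 49.6) and 37.9% (25.5 to 51.6) in immune cells on E15, E19 and in the pup. Up to the pup all thinned columnar shares overlapped the immune share of their stage. Thinning took more UMIs from the deeper columnar cells, and whether background UMIs rise with depth was not tested. The thinned shares therefore do not settle whether columnar cells exceeded the background. Without thinning, the pup shares of the stomach (80.7 to 88.5) and the GE-SCJ (75.0 to 84.5) lay above the immune share (37.9 to 59.9), at unequal depth. The unthinned shares of E15 and E19 overlapped those of immune cells. In thinned cells *Kcne2* was found in 28.4% of stomach pup cells and 1.72% of pup immune cells, and *Esrrg* in 29.6% and 1.72%.

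A minority of columnar cells held more *Atp4a* UMIs than any immune cell. Of all columnar cells, 313 held none and 909 held 1 to 4. No immune cell had more than 6 *Atp4a* UMIs, whereas the highest columnar cells reached 39 on E15, 208 on E19 and 833 in the pup of the stomach, and 10, 423, 742 and 594 from E15 to adult in the GE-SCJ. Cells with 20 or more *Atp4a* UMIs are called *Atp4a*-high below. This is a range of a continuous measure and not a cell type, with 18 cells at 10 to 19 UMIs and 27 at 20 to 39. In the stomach *Atp4a*-high cells were 1 of 140 on E15 (0.714%, 0.0181 to 3.92), 24 of 366 on E19 (6.56%, 4.25 to 9.60) and 112 of 351 in the pup (31.9%, 27.1 to 37.1). In the GE-SCJ they were 0 of 53 on E15 (exact upper limit 6.72%, or 5.66% at 3 counts), 14 of 274 on E19 (5.11%, 2.82 to 8.42), 46 of 291 in the pup (15.8%, 11.8 to 20.5) and 2 of 19 in the adult (10.5%, 1.30 to 33.1). The pup share was higher than that of E19 in both regions and higher in the stomach than in the GE-SCJ, with intervals apart, and the E19 intervals of the regions overlapped. The 199 *Atp4a*-high cells were 13.3% of columnar cells and held 96.1% of their *Atp4a* UMIs, a share largely set by the choice of cells. Of them, 181 lay in the authors' cluster 15, which had 189 cells in these groups and 9429 CPM of *Atp4a*, while clusters 4 and 7, with most of the other columnar cells, had 79.1 and 110 CPM. The clusters were made from expression in the same cells and are no independent measure.

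**Figure D2:**
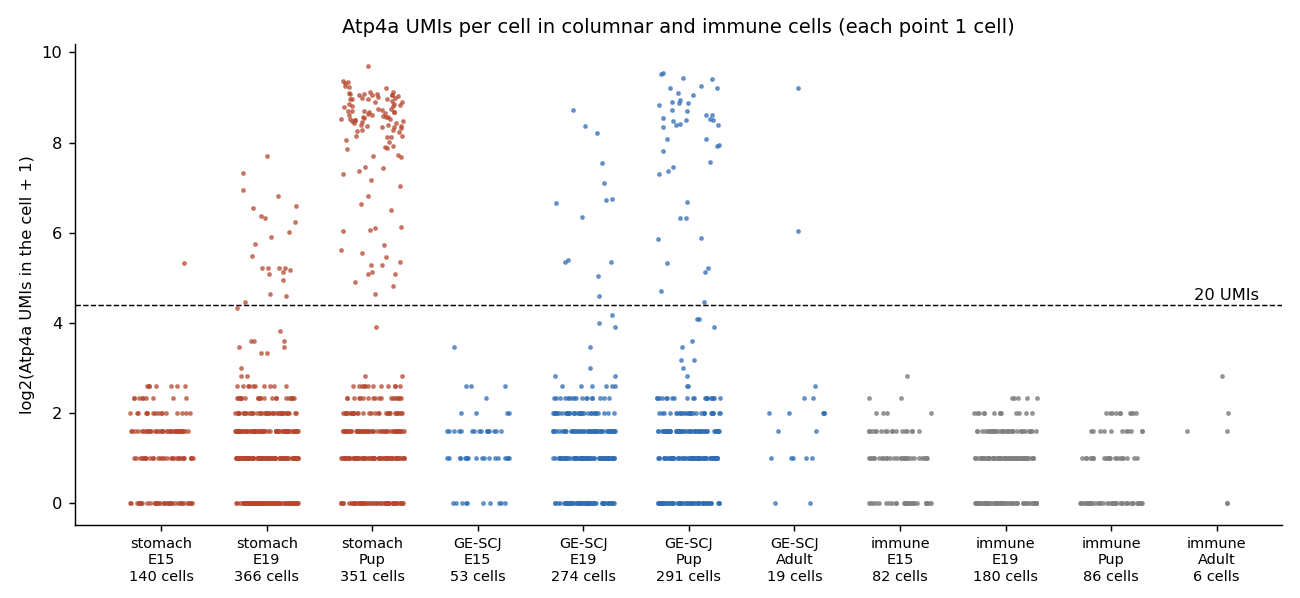
*Atp4a* UMIs in each columnar cell of the stomach (red) and the GE-SCJ (blue) and in each immune cell (grey), as log2(UMIs + 1), by region and stage, with sideways scatter for display and a dashed line at 20 UMIs. In the pup, 112 stomach cells and 46 GE-SCJ cells lie above the line, of which 8 and 5 hold 20 to 39 UMIs, while 1 and 5 cells hold 10 to 19. No immune cell exceeds 6 UMIs.

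*Atp4a*-high cells differed in depth from the other columnar cells, and in opposite directions at the stages. In the pup their median was 37158.5 UMIs against 25273 in the stomach and 38934.5 against 20191 in the GE-SCJ. On E19 it was 6290 against 24648.5 in the stomach, where 10 of the 24 cells had under 5000 UMIs, and 20432.5 against 24442.5 in the GE-SCJ. The median share of mitochondrial UMIs was 5.64% against 3.98% in the stomach pup and 6.35% against 4.25% in the GE-SCJ pup, while on E19 it was 2.20% against 2.57% in the stomach and 3.53% against 2.61% in the GE-SCJ. Above 10% lay 31 of 112 *Atp4a*-high and 8 of 239 other cells in the stomach pup, and 17 of 46 and 8 of 245 in the GE-SCJ pup. Cells with a high mitochondrial share had been removed before deposit, and how many *Atp4a*-high cells were among them is not known. With each cell thinned to 5000 UMIs and a limit of 10, the shares were 3.48% on E19 and 28.7% in the pup for the stomach, and 4.14% and 13.4% for the GE-SCJ. Thinning left out the 10 *Atp4a*-high cells of the stomach under 5000 UMIs on E19 and 8 of the 112 in the pup. The part of mitochondrial share in these results was not tested. Marker lists were read over both regions and all stages pooled. Pup cells were 112 (stomach) and 46 (GE-SCJ) of the 199 *Atp4a*-high cells and 239 and 245 of the 1295 others. Stage therefore cannot be told apart from *Atp4a* in these values. Summed over cells, the chief markers stood at 12053 CPM in *Atp4a*-high and 16891 CPM in other columnar cells, the pit markers at 790 and 11942 CPM, the neck markers at 776 and 2590 CPM and the endocrine markers at 91.8 and 822 CPM. Of the endocrine markers *Chga* alone was higher in *Atp4a*-high cells (37.6 against 17.4 CPM), and *Ghrl*, *Gast* and *Sst* were lower. The median over cells was 310 CPM for the 4 pit markers against 710 CPM in the other columnar cells, 135 against 526 CPM for the 2 neck markers, 45.9 against 55.0 CPM for the 4 endocrine markers and 1108 against 867 CPM for the 4 chief markers, with 690, 101, 88.5 and 944 CPM in immune cells. The immune list was at 0 in 170 of the 199 cells and summed to 5.37 CPM, and of the 3 endothelial markers *Kdr* was at 0. The 6 erythroid markers summed to 1298 CPM in *Atp4a*-high and 737 CPM in other columnar cells, with medians of 205 and 221 CPM. The 5 columnar markers used to check the label summed to 1774 CPM in *Atp4a*-high and 4756 CPM in other columnar cells. Each of them was lower in *Atp4a*-high cells. Their medians over cells were 1485 and 4381 CPM, against 214 CPM in immune cells.

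Most UMIs of the pump, *Kcne2* and *Esrrg* in the pup came from the *Atp4a*-high cells. In the stomach pup these cells held 35.6% of all columnar UMIs but 98.9% of the *Atp4b* UMIs, 96.5% of *Kcne2* (95.5 to 97.4), 89.0% of *Esrrg* (87.2 to 90.6), 74.0% of *Kcnq1* (70.3 to 77.4) and 56.5% of *Car2* (55.6 to 57.3). In the GE-SCJ pup, where they held 22.8% of all UMIs, the shares were 97.1%, 93.3%, 75.1%, 50.7% and 35.3% in the same order. On E19 the same order did not hold for all genes. The stomach cells with 4.01% of all UMIs held 67.1% of *Atp4b*, 56.1% of *Kcne2*, 37.9% of *Esrrg*, 18.0% of *Kcnq1* and 3.47% of *Car2*, while the GE-SCJ cells with 4.33% held 75.2% of *Atp4b*, 60.2% of *Kcne2*, 31.4% of *Kcnq1*, 22.3% of *Esrrg* and 6.74% of *Car2*.

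**Figure D3:**
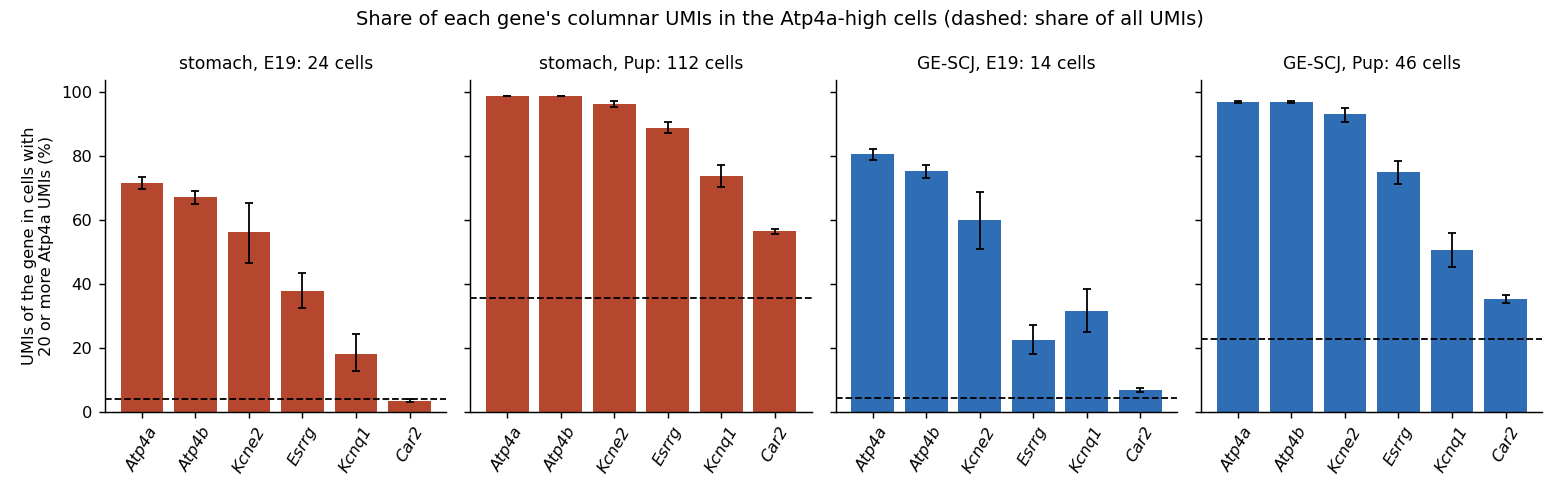
Share of the columnar UMIs of 6 genes that lies in cells with 20 or more *Atp4a* UMIs, in percent, for the stomach (red) and the GE-SCJ (blue) on E19 and in the pup, with exact 95% counting intervals and a dashed line at the share of all UMIs in those cells. *Atp4b* stands at 98.9% in the stomach pup and *Car2* at 56.5%, above the line at 35.6%, and *Car2* lies just below the line in the stomach on E19 (3.47%, 3.12 to 3.85, against 4.01%). The *Atp4a* bar is fixed by the choice of cells.

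Per UMI, the other 5 genes measured 8425 CPM (*Atp4b*), 114 CPM (*Kcnq1*), 361 CPM (*Kcne2*), 1895 CPM (*Car2*) and 305 CPM (*Esrrg*) in *Atp4a*-high cells of the stomach pup, and 50.7, 22.2, 7.21, 808 and 20.8 CPM in the other columnar cells. The log2 ratios were 7.37 (7.23 to 7.53), 2.35 (2.10 to 2.63), 5.62 (5.25 to 6.07), 1.23 (1.18 to 1.28) and 3.86 (3.63 to 4.12). With *Atp4a*, which chose the cells, 6 genes were at least 2-fold higher there (10.5% of all genes). In the GE-SCJ pup 5 were (7.76%), with *Car2* under 2-fold at a log2 ratio of 0.88 (0.81 to 0.95). On E19, 5 were higher in the stomach (12.7%) and 5 in the GE-SCJ (14.4%). *Car2* was again the exception, at -0.22 (-0.38 to -0.06) in the stomach and 0.68 (0.49 to 0.85) in the GE-SCJ. *Atp4b*, the partner of *Atp4a* in the pump, was found in every *Atp4a*-high cell, but also in 65.2% of the 313 columnar cells without an *Atp4a* UMI and in 55.4% of immune cells. In the pup the lowest *Atp4a*-high cell held 1 *Atp4b* UMI. All of *Atp4b*, *Kcnq1*, *Kcne2*, *Car2* and *Esrrg* were found together in 87 of 112 *Atp4a*-high cells of the stomach pup (77.7%) and 38 of 46 of the GE-SCJ pup (82.6%), and in 9 of 24 and 9 of 14 on E19, where depth was lower. In the other columnar cells it was 14 of 239 and 6 of 245 in the pup and 9 of 342 and 7 of 260 on E19, and it was 0 of the 354 shallower immune cells.

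**Figure D4:**
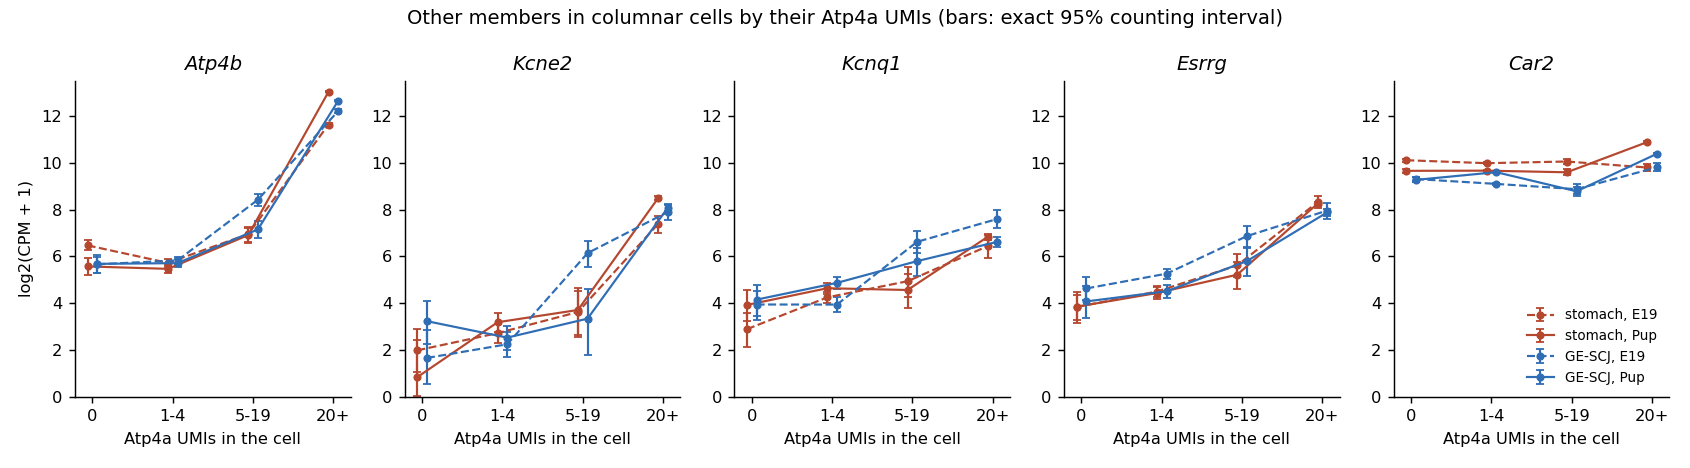
Levels of the other genes, as log2(CPM + 1), in columnar cells grouped by their *Atp4a* UMIs (0, 1 to 4, 5 to 19, 20 or more), for the stomach (red) and the GE-SCJ (blue) on E19 (dashed) and in the pup (solid), with exact 95% counting intervals. *Atp4b*, *Kcne2*, *Kcnq1* and *Esrrg* are highest in cells with 20 or more UMIs (*Atp4b* at 8425 CPM in the stomach pup), and *Car2* is high in every range.

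Joint detection was also counted at equal depth, as the share of thinned cells with a UMI of each gene among cells with and without an *Atp4a* UMI. In the stomach pup 4 of the 5 genes found in at least 20 cells had shares with intervals apart, where 7.6% of all genes did. *Kcne2* was found in 55.2% (47.2 to 63.0) of 163 *Atp4a*-positive and 3.93% (1.60 to 7.93) of 178 *Atp4a*-negative cells, and *Atp4b* in 71.8% and 24.2%. *Esrrg* was found in 50.3% and 10.7%, *Kcnq1* in 28.8% and 9.55%, and *Car2* in 90.2% (84.5 to 94.3) and 84.3% (78.1 to 89.3), which overlapped. In the GE-SCJ pup it was 3 of 5 (2.07% of all genes), namely *Atp4b*, *Kcne2* and *Esrrg*. On E19 it was 2 of 4 in the stomach, *Atp4b* and *Kcnq1* (0.286% of all genes), and 2 of 4 in the GE-SCJ, *Kcnq1* and *Esrrg* (0.322%). The E19 stomach cells left out for having under 5000 UMIs include 10 of the 24 *Atp4a*-high cells. With a limit of 20 UMIs and no thinning 4 genes were apart there, a setting for which the share of all genes was not computed. On E15 and in the adult GE-SCJ no share was apart, with 35 and 11 *Atp4a*-positive cells on E15. The adult GE-SCJ had 8 *Atp4a*-positive and 10 *Atp4a*-negative cells, too few to decide on joint detection. The share of all genes was not computed for E15 or the adult stage. Over all 351 columnar cells of the stomach pup, Pearson's r with *Atp4a* of the log-scaled UMIs was 0.97 for *Atp4b*, 0.87 for *Kcne2*, 0.82 for *Esrrg*, 0.55 for *Kcnq1* and 0.49 for *Car2*. Within the 112 *Atp4a*-high cells it was 0.80 for *Atp4b*, 0.68 for *Car2*, 0.20 for *Kcne2*, 0.15 for *Esrrg* and 0.02 for *Kcnq1*. In the 46 *Atp4a*-high cells of the GE-SCJ pup the values were 0.88, 0.71, 0.70, 0.42 and 0.27 in the same order. The 24 *Atp4a*-high cells of the stomach on E19 gave 0.71, 0.11, -0.06, 0.29 and 0.20, so the order of the genes differed between groups. These cells share a library and differ in depth, so the r values are descriptions.

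Columnar cells under the limit of 20 UMIs were chosen by *Atp4a* itself, so that their *Atp4a* level, and in part that of genes found in the same cells, was fixed by the choice and is given as a description. *Atp4a* measured 59.7, 68.2 and 57.7 CPM in the stomach from E15 to pup and 68.7, 68.0, 72.6 and 81.3 CPM in the GE-SCJ from E15 to adult, and *Atp4b* 73.6, 65.4 and 50.7 CPM and 83.1, 70.9, 57.6 and 57.2 CPM. *Atp4b* stood at 96.1 UMIs per 100 *Atp4a* UMIs in these cells (90.6 to 102), 86.4 in *Atp4a*-high cells (85.3 to 87.4) and 88.1 in immune cells (75.6 to 103), so that the ratio in *Atp4a*-high cells lay within the interval of immune cells and below that of the cells under the limit. *Esrrg* was different, with 41.9 UMIs per 100 *Atp4a* UMIs under the limit (38.8 to 45.1), 3.31 in *Atp4a*-high cells and 3.52 in immune cells (1.86 to 6.10). On E15 under the limit the *Esrrg* ratio was 63.1 (52.7 to 75.5). For *Kcnq1* it was 28.7 per 100 under the limit (26.3 to 31.2), 1.31 in *Atp4a*-high cells and 5.15 in immune cells. *Kcne2* stood at 9.48 per 100 under the limit (8.22 to 10.9), 3.70 in *Atp4a*-high cells and 3.52 in immune cells (1.86 to 6.10). *Car2* stood at 1098, 19.2 and 89.7 in the same order. For *Esrrg*, *Kcnq1*, *Kcne2* and *Car2* the interval under the limit lay above that of immune cells, and for *Atp4b* and *Slc26a7* the intervals overlapped. The choice of cells capped the *Atp4a* UMIs under the limit, which are the denominator of these ratios.

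Between E15 and the pup, *Kcnq1* under the limit had log2 ratios of 1.83 (1.25 to 2.58) in the stomach and 1.53 (0.79 to 2.61) in the GE-SCJ, and *Car2* 1.67 (1.58 to 1.78) and 1.25 (1.10 to 1.40). *Esrrg* stood at -0.63 (-0.98 to -0.27) in the stomach and -1.38 (-1.77 to -0.96) in the GE-SCJ, where cells with the most *Atp4a* had been taken out. *Kcne2* measured 4.96 CPM on E15 and 7.21 CPM in the pup in the stomach (log2 ratio 0.49, -0.24 to 1.38). Levels within the *Atp4a*-high cells also differed by stage. From E19 to pup, 4 genes were 2-fold higher within *Atp4a*-high cells of the stomach (7.19% of all genes), with *Atp4a*, which chose the cells, among them. The fixed limit of 20 UMIs was applied to cells of median depth 6290 on E19 and 37158.5 in the pup. The log2 ratios were *Atp4b* at 1.40 (1.32 to 1.48), *Atp4a* at 1.16, *Kcne2* at 1.09 (0.75 to 1.50) and *Car2* at 1.08 (0.93 to 1.25), while *Esrrg* (-0.07, -0.33 to 0.22) and *Kcnq1* (0.36, -0.11 to 0.96) were not. In the GE-SCJ none was (5.72%), and *Kcnq1* had a log2 ratio of -0.999 (-1.41 to -0.54) over 14 and 46 cells.

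Other genes of the secretory machinery were read in *Atp4a*-high cells of the pup from 6 lists, where the background of all genes was 10.5% higher by 2-fold and 19.9% lower in the stomach, and 7.76% and 12.1% in the GE-SCJ. A gene was counted on its UMIs over both groups. Genes with few UMIs in the other cells thus entered through the *Atp4a*-high cells of the stomach pup. Among them were *Hrh2*, *Sstr2*, *Cckbr*, *Kcnj16*, *Esrrb* and *Kcne1*, which include every receptor counted as higher there. The counts of list genes are thus in part set by this filter, which was also applied to all genes. Of 12 ion transport genes counted in the stomach, 6 were higher and 2 lower. Those higher were *Slc4a2*, the basolateral anion exchanger (531 against 40.0 CPM, log2 ratio 3.73), the chloride transport genes *Clic6* (3.75) and *Slc26a9* (3.67), the potassium channels *Kcnj16* (6.86, 6.04 to 8.24) and *Kcnj15* (1.83) and the potassium chloride cotransporter *Slc12a7* (1.69). The sodium proton exchanger *Slc9a4* (-1.09) and the chloride channel *Cftr* (-1.88, with 5 and 39 UMIs) were lower. In the GE-SCJ pup the same 6 were higher and none was lower, with *Slc9a4* at -0.75 and *Cftr* at -0.30. Receptors for secretagogues and inhibitors were higher in 3 of 4 in the stomach, namely the histamine receptor *Hrh2* (63.2 against 0.544 CPM, log2 ratio 6.54, 5.49 to 8.75), the gastrin receptor *Cckbr* (3.78, 3.10 to 4.70) and the somatostatin receptor *Sstr2* (4.41, 3.16 to 7.12), while the muscarinic receptor *Chrm3* was at 0.36 (-0.21 to 0.91). In the GE-SCJ, *Hrh2* (6.48, 5.14 to 10.1) and *Cckbr* (2.54, 1.81 to 3.35) were higher of 3 counted. Of 9 genes of the apical membrane and vesicle traffic, *Ezr* (1.55 and 1.10 in stomach and GE-SCJ) and *Rab11a* (1.71 and 1.24) were higher in both regions, and *Stx3* was lower in the stomach (-1.39).

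Among 7 mitochondrial regulators counted in the stomach pup, 4 were higher, the *Esrrg* relatives *Esrra* (1.95) and *Esrrb* (5.02, 3.41 to 11.3, with 1 UMI in the other cells) and the coactivators *Ppargc1a* (2.03) and *Ppargc1b* (1.90), while *Tfam*, *Nrf1* and *Gabpa* lay between -0.52 and -0.26. *Esrra*, *Ppargc1a* and *Ppargc1b* were also higher in the GE-SCJ pup, of 6 counted, at 1.30, 2.00 and 1.34. Of the other carbonic anhydrases, *Car5b* (1.09), *Car8* (1.28) and *Car9* (1.48) were higher of 4 counted in the stomach, and in the GE-SCJ *Car9* (2.76) was higher and *Car4*, with 0 UMIs in *Atp4a*-high and 27 in other cells, lower of 5. *Kcne1*, another accessory subunit of *Kcnq1*, was the only other KCNE or KCNQ gene with enough UMIs in the pup. It had 258 UMIs in *Atp4a*-high cells of the stomach pup (63.4 CPM, in 81 of 112 cells) and 0 in the 239 other cells, at least 155-fold higher when 3 counts are taken over the other cells. In the GE-SCJ pup it had 91 and 2 UMIs (log2 ratio 6.70, 5.37 to 10.3), and 2 UMIs in all immune cells. On E19 *Kcne1* was higher of 2 counted, with 20 UMIs in the 24 *Atp4a*-high cells (52.2 CPM) and 8 in the other cells of the stomach (log2 ratio 5.80, 4.66 to 7.29), and 36 UMIs in 14 cells (116 CPM) and 5 in the others of the GE-SCJ (7.09, 5.96 to 9.02). On E19 the same lists gave 5 of 12 ion transport genes higher and 1 lower in the stomach (12.7% and 9.25% of all genes) and 7 higher and 1 lower in the GE-SCJ (14.4% and 11.4%), with *Slc4a2* (2.32 and 2.96), *Clic6*, *Slc26a9*, *Slc12a7* and *Kcnj16* higher in both. None of the 9 apical genes was higher in either region on E19, and in the GE-SCJ *Rab25*, *Rab11fip1*, *Stx3* and *Cttn* were lower (-1.81 to -1.03). *Ppargc1b* was higher in both regions (1.34 and 1.21), and *Esrra* (2.10) and *Ppargc1a* (1.22) in the GE-SCJ, of 6 mitochondrial regulators each. The only receptor counted on E19, *Chrm3*, was higher on 8 and 6 UMIs (2.99, 1.53 to 4.06, and 2.06, 0.34 to 3.14). Of 3 other carbonic anhydrases each, *Car8* was lower in the GE-SCJ (-1.25), and *Car5b* in the stomach was counted only through the UMI added to each sum, with 3 and 44 UMIs (7.83 and 4.80 CPM).

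The genes most like *Atp4a* depended on whether cells or groups were compared. Over the 642 pup columnar cells and 12288 genes, Pearson's r was highest for *Atp4b* (0.96), followed by *Smim38* (0.95), *Clic6* (0.89), *Slc4a2* (0.88), *Cst8* (0.88) and *Kcne2* (0.88). The next 9 were the cytochrome c oxidase subunit genes *Cox4i1* (0.86), *Cox6c* (0.85) and *Cox7a1* (0.84), the complex III gene *Uqcr11* (0.84), the mitochondrial phosphate carrier *Slc25a3* (0.85), the ketone body enzyme *Oxct1* (0.86) and *Ldhb* (0.87), with *Cdkn2b* (0.85) and *Dnajc15* (0.84). *Esrrg* had rank 30 (0.80), *Kcnq1* rank 323 (0.52) and *Car2* rank 454 (0.44). Over 55 groups of region, stage and label with at least 20 cells, and 14658 genes, *Atp4b* was again first (0.97) with *Smim38* second (0.93). They were followed by the secreted digestive proteins *Clps* (0.91) and *Pla2g1b* (0.90) and by *Cst8*, *Pdia2*, *Gkn1*, *Gkn2*, *Pga5*, *Gm11963*, *2200002J24Rik*, *Pgc*, *Gm48089*, *Sycn* and *Gsdma2* (0.89 to 0.85). *Pgc*, *Pga5*, *Gkn1* and *Gkn2* were lower in *Atp4a*-high than in other columnar cells, with stages pooled (11840 against 16603, 8016 against 13972, 59.7 against 1831 and 83.4 against 1855 CPM). *Clps* (6015 against 8596 CPM) and *Gsdma2* (62.8 against 155 CPM) were lower too, and the rest of the 15 were higher. The groups and cells share a library and its free RNA.

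Levels outside columnar cells differed between the genes. *Car2* measured 230 CPM (207 to 255) in 86 adult squamous cells of the GE-SCJ, with a UMI in 75.6% of them, and 52.7 CPM (45.0 to 61.2) in 232 adult squamous cells of the esophagus. *Kcnq1* measured 12.9 CPM (8.19 to 19.4) in endothelial and 5.05 CPM (3.04 to 7.88) in immune cells. *Esrrg* measured 67.4 CPM (65.0 to 69.9) in all 1540 columnar-labelled cells and between 1.49 and 5.52 CPM in the other 8 labels. *Slc26a7* was lower in columnar cells (9 UMIs, 0.208 CPM, 0.0952 to 0.395) than in stroma. The Stromal label held 292 UMIs in 165 of 3442 cells (8.997 CPM, 7.99 to 10.1). In it 35 cells held 51.0% of these UMIs, and the highest cell 21. The Stromal-2 label held 62 UMIs in 31 of 139 cells (46.2 CPM, 35.4 to 59.2), at 51.0 CPM on E15, 64.8 CPM on E19 and 7.95 CPM in the pup. In the latter label 22.3% of cells had a UMI (15.7 to 30.1), at a median depth of 8353 UMIs, against 0.584% of columnar cells at 25118 UMIs.

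**Figure D5:**
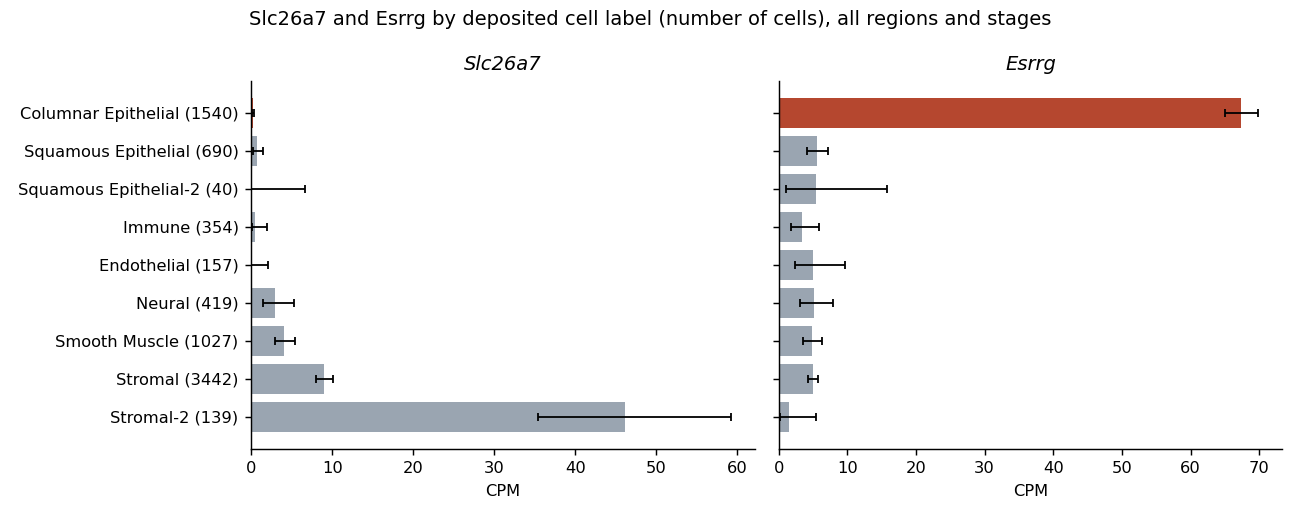
Level of *Slc26a7* and *Esrrg* in CPM for each deposited label over all regions and stages, with cell numbers in parentheses and exact 95% counting intervals. *Slc26a7* is highest in the Stromal-2 label (46.2 CPM) and at 0.208 CPM in columnar cells (red), and *Esrrg* is highest in columnar cells (67.4 CPM).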

How the data were processed

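Single cells of 11 region and stage tags were measured in a pooled library. The authors aligned reads to mm10 (GRCm38) with Cell Ranger 6.1.1 and deposited raw UMI counts per gene and cell without normalization. Cells with too few or too many genes, many UMIs or a high mitochondrial share had been removed, which was also the screen for doublets, and none were removed further. The percent of mitochondrial UMIs, class labels and clusters were deposited by the authors for each cell, with a highest value of 19.7% mitochondrial UMIs. Immune cells of the same stage served as the background, since free RNA of a pooled library can reach every cell.

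UMIs were summed per region, stage and label and given as CPM with exact Poisson intervals, and shares with Clopper-Pearson intervals. Log2 ratios were taken after adding 1 UMI to each sum. Their conditional binomial intervals, and ratios between stages given as fold, used the sums without that UMI. All genes with at least 20 UMIs over both groups were compared, and a ratio of 2-fold was counted. Groups hold a single sample, so no test was run. Thinning drew 5000 UMIs per cell (seed 1). The members and lists were chosen with earlier results of these data known. A gene of the ion transport list is not reported here and was left out of its counts. Named genes are the members, list genes past 2-fold, and the 15 genes most correlated with *Atp4a* over groups, as log2(CPM + 10) for genes with at least 100 UMIs, or over pup columnar cells, as log of 1 plus UMIs per 10000 for genes found in at least 20 cells. List genes under 2-fold and other genes given by value were named after their values were seen, as was the cluster. The ratios were tested on simulated Poisson sums without spread between cells, and thinning on cells of the data. Alternatives changed the scale, cell filter, library size, doublet limit, background, fold and UMI limits, and 4 more were chosen after seeing the data. The scripts ran under Python 3.11.15 with scipy 1.17.1, numpy 2.4.6, matplotlib 3.10.9 and pandas 2.3.3.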

Additional observations from a re-analysis of the deposited data

Results flagged for a closer look

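Columnar-labelled cells that carried esophagus tags were not part of the comparisons. At E19, 20 such cells held 823 CPM of *Atp4a*, 656 CPM of *Atp4b* and 34.7 CPM of *Kcne2*, and 469 of the 498 *Atp4a* UMIs were in 1 cell. In the pup, 10 such cells held 5023 CPM of *Atp4a*, 3765 CPM of *Atp4b* and 65.0 CPM of *Kcne2*, with 3 cells at 20 or more *Atp4a* UMIs. These levels are above those of immune cells of the stage (93.7 and 120 CPM of *Atp4a*). Of 6268 cells with other labels, 8 had 20 or more *Atp4a* UMIs. *Slc26a7* was above its immune level of 0.531 CPM with intervals apart in 3 labels outside the comparisons, Stromal (8.997 CPM), Stromal-2 (46.2 CPM) and Smooth Muscle (4.06 CPM). *Car2* in columnar cells under the *Atp4a* limit moved in opposite directions between E19 and the pup, with a log2 ratio of -0.36 (-0.41 to -0.31) in the stomach and 0.37 (0.31 to 0.43) in the GE-SCJ, and this difference was not tested.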

How the results depend on the processing

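No paired analysis was possible because every group is 1 sample of pooled mice. Of 54 log2 ratios between stages or regions, 28 reached 2-fold, and none of these changed sign under 7 alternatives. Of their 196 alternative values, 192 still reached 2-fold (ratios under 2-fold did change sign, as given for the regions on E19). Of 106 counts of genes, 101 were equal to the main count or moved by at most 1.5 times. Averaging the CPM of single cells gave 3 genes for the pup over E19 in the stomach in place of 5 (*Kcnq1* 0.89, *Esrrg* 0.97). Leaving the top 50 genes out of the library size gave 0 in place of 2 for stomach over GE-SCJ in the pup (*Atp4b* and *Kcne2* both 0.96), and moved the median log2 ratio of all genes by up to 0.23. With endothelial and neural cells as background, 4 genes in place of 2 passed in the stomach at E15. With a fold of 4, 3 in place of 6 passed in the stomach at E19 and 2 in place of 4 in the adult GE-SCJ. Subtracting the immune CPM left E15 *Atp4a* at the floor of 3 UMIs, so its ratios to E15 are then set by that floor. The share of *Atp4a*-high cells was 0% in the stomach at E15 with a limit of 50 UMIs, after thinning with a limit of 10, or by the authors' cluster, and 3.28% and 3.48% in the stomach at E19 with the first 2 of these. The share of *Atp4a*-positive cells in the stomach pup was 64.7% at 2 UMIs, 36.2% at 5 UMIs and 47.8% after thinning, and in the GE-SCJ pup 56.7%, 19.6% and 40.1%. Genes found jointly with *Atp4a* in the stomach at E19 numbered 4 at 5 UMIs and at 20 UMIs, and 1 without cells above 40000 UMIs. In the GE-SCJ at E19 they numbered 4 at 2, 5 or 20 UMIs, and 1 unthinned or without cells above 40000 UMIs. The cause of these shifts was not tested. The share of all genes was not computed under these alternatives, so the altered counts cannot be set against it. Few UMIs limit comparisons of *Slc26a7* in columnar cells and of all genes in the 19 adult GE-SCJ cells.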
